A study of Mus musculus with 16 samples.

Results

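Junb, Zfp36, Dnajb1 and Hsp90aa1 belong to the immediate early and heat shock responses of mammalian cells. They were taken by gene name from a deposited table of 2438 genes, and all 4 were in it. The table covered 16 RNA sequencing libraries of mouse duodenum. The labels call the material epithelium, while the design text speaks of tissue of the proximal small intestine, so how far other cell layers were removed is uncertain. In 9 libraries (flox, replicates 1 to 7, 9 and 10) the Ephb4 alleles were fl/fl, and in 7 (KO, replicates 1 to 5, 7 and 8) Ephb4 had been deleted conditionally in intestinal epithelial cells. Mice of both groups were 8 weeks old when a high fat diet began and ate it for 19 weeks, so the comparison holds no mouse on another diet. Neither the labels nor the design text names the recombinase line or the promoter that drove it. By the title of the study, the question was what loss of EphB4 from the epithelium does in obesity brought on by a high fat diet. A gene is called listed where the table held it, and the table held only genes whose adjusted p the authors had found under 0.05 in these same libraries. Each of the 4 genes had therefore passed that threshold already, as had 14.8% of the 16488 genes adjusted over, and no p below is separate support for a difference. In limma, run here on the deposited values, all 4 passed an adjusted p of 0.05 too, against 7.7% of the 16488 genes and 54.3% of the 2339 listed genes that were tested, and the choice of the 4 with results known means that nothing is read from that count.

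Immediate early genes are transcribed within minutes of a growth factor, cytokine or mechanical stimulus, with no need for new protein. Junb encodes a subunit of AP-1, the dimeric transcription factor built from Jun and Fos proteins. Zfp36 encodes tristetraprolin, which binds AU-rich elements in the 3′ ends of cytokine and growth factor messengers and promotes their decay, including decay of its own messenger. Dnajb1 encodes an Hsp40 co-chaperone that delivers unfolded proteins to Hsp70, and Hsp90aa1 encodes the inducible cytosolic form of the chaperone Hsp90, which matures kinases and steroid receptors. Heat shock factor induces both chaperone genes when proteins misfold. In the intestinal epithelium immediate early genes also respond to feeding, to microbes and to tissue dissection.

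Sequences are shown because Junb, Zfp36 and Dnajb1 were lower together in KO and because tristetraprolin acts through letters that a reader can look for. The RefSeq promoter table (GRCm38.p6) matched 3 of the 4 genes. Each stretch below runs 5′ to 3′ from 250 bases upstream of the RefSeq start. It ends just before the deposited gene start where that lies within 30 bases downstream of the RefSeq start, and at the RefSeq start otherwise. Capitals mark, on either strand, matches to TATAAA, to the letters CCAAT, to GCGGGGGCG or to the CArG box of serum response factor.
Junb, chr8:84978719-84978998, minus strand: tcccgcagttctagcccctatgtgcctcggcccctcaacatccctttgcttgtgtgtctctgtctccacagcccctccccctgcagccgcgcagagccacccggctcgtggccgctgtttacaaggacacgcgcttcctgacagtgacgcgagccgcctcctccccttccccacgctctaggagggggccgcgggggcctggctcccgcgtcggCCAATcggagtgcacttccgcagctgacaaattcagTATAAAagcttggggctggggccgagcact
Zfp36, chr7:28379229-28379478, minus strand: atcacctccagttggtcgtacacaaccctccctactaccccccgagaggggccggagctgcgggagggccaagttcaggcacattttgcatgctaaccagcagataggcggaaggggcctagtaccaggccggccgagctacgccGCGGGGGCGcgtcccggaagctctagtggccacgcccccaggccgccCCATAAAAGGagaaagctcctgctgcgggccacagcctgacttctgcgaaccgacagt
Dnajb1, chr8:83607925-83608192, plus strand: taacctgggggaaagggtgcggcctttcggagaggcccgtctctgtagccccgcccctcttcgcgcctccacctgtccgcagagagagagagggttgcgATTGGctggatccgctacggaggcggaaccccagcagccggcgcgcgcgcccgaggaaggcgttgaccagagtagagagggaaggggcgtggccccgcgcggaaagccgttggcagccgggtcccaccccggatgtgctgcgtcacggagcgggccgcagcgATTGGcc
The Junb stretch held a TATAAA match and a CCAAT match. The Zfp36 stretch held a GCGGGGGCG match, the letters bound by Egr proteins, and a CArG box, CCATAAAAGG. The Dnajb1 stretch held CCAAT letters at 2 places, both on the other strand and therefore printed as ATTGG. Letters of heat shock elements (GAANNTTC or TTCNNGAA), of AP-1 sites (TGANTCA) and of cAMP response elements (TGACGTCA) were searched too and were not found in these 3 windows. Of 32851 windows of 300 bases in the table, 13.6% held TATAAA, 37.4% CCAAT, 2.91% GCGGGGGCG, 1.63% a CArG box, 7.86% GAANNTTC, 8.52% TTCNNGAA, 7.81% TGANTCA and 1.79% TGACGTCA. The deposited Zfp36 gene model begins 1025 bases upstream of the RefSeq start, so its window lies inside that model.

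AU-rich sites separate the Zfp36 messenger from the others in sequence. The tristetraprolin heptamer TATTTAT occurred 3 times after the Zfp36 stop codon (GENCODE M21, GRCm38, minus strand) and 0 times in the 3′ untranslated regions of Junb, Dnajb1 and Hsp90aa1, of 485, 1834 and 935 bases. Of 21153 genes with such a region, 25.4% held the heptamer, which is in capitals in the 3 sites.
Zfp36, chr7:28376967-28376993: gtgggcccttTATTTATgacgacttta
Zfp36, chr7:28376952-28376978: atgacgacttTATTTATtgtattaaga
Zfp36, chr7:28376927-28376953: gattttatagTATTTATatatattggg
The first and second of these stretches overlap. A match is a description of letters and says nothing of binding in these samples.

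Reads in the listed genes numbered 4237178 to 5316273 per flox library and 3592468 to 4555872 per KO library. Values are normalised counts, the deposited reads divided by a size factor per library. The targeted gene Ephb4 was at 210.5 ± 94.4 (SD, n = 9) in flox and 36.6 ± 21.7 (SD, n = 7) in KO, with no overlap. Epithelial transcripts were abundant in all 16 libraries, and Rbp2, a retinol binding protein of enterocytes, was never below 65090 normalised counts. Of 17 epithelial markers 8 were listed (47.1%, against 14.8% of all 16488 genes), all lower in KO. Their median was -0.43 (log2) in the authors' deposited table, and limma called 6 of them lower. Rbp2 was 1.44-fold lower in that table, a difference of the size seen in Junb. The part of these transcripts in the results below was not tested. Of 64 markers of T, B, mast, myeloid, stromal and endothelial cells 10 were listed, all higher in KO. That is 15.6%, near the 14.8% of all genes. Their summed level was 331.3 to 649.8 in flox and 456.3 to 1698 in KO, with KO replicate 1 highest, and only the stromal marker Lum was at 0 in any library (5 flox and 1 KO). Of 20 exocrine pancreas markers 17 were listed (85%). Their summed level exceeded the highest KO library, at 1575, in flox replicates 4, 6, 7, 9 and 10, where it reached 135780. The labels do not say that each library came from its own mouse, so p-values measure the spread between these libraries.

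Junb was lower in KO. Its level ran from 1819 over a median of 2085 to 2742 normalised counts in the 9 flox libraries, and from 1174 over 1375 to 1907 in the 7 KO libraries. Of the KO libraries 5 lay below every flox library, while replicates 2 and 4 fell within the low end of the flox range. The mean went from 2217 ± 324 (SD, n = 9) to 1530 ± 285 (SD, n = 7), which is 1.45-fold lower. The log2 difference was -0.54 ± 0.11 (SE), with an adjusted p of 0.0106 in limma and a two-sided exact permutation p of 0.000262. For Junb the authors' deposited table lists -0.54 on the log2 scale (adjusted p = 0.000502). These are bulk samples, in which fewer cells of a type and less RNA per cell cannot be told apart. Junb lies at chr8:84974484-84978718 on the minus strand (ENSMUSG00000052837), and the last 351 bases of its model overlap the 3′ end of Prdx2 on the other strand. The labels state no strand setting, so reads of that overlap may belong to either gene.

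The other Jun family genes were listed with Junb, in the same direction. Of 24 immediate early transcription factors 7 were listed, 4 lower and 3 higher. Of all 16488 genes that the authors adjusted over, 7.81% were listed as lower and 6.97% as higher. The 4 lower genes were all AP-1 subunits: Junb, Jund, Jun and Fosl2. Fos, Fosb and Fosl1, of the same list, were not listed. Jund, which is expressed constitutively in many tissues, fell from 1864 ± 299 (SD, n = 9) to 1325 ± 169 (SD, n = 7), 1.41-fold, but its log2 difference was 0.06 once a GC trend was removed. Fosl2, which encodes the Fos protein Fra-2, fell from 3590 ± 507 to 2745 ± 521. Its limma call was kept in 8 of 16 fits with 1 library left out. With the GC trend removed its log2 difference was -0.16 and that of Jun -0.15. Under quantile normalisation they were -0.06 and -0.16. Jun was at 2135 ± 414 in flox and 1543 ± 352 in KO, with an adjusted p of 0.0517 in limma, just above the threshold. Limma called 3 of these genes lower and 0 higher (0 higher also at an unadjusted p under 0.05), against 4.97% and 2.72% of all 16488 genes, which were 820 lower and 449 higher genes and became 239 lower and 692 higher with TMM scaling. The 3 listed as higher were Egr2, Egr3 and Nr4a1, all at low levels. Egr2, a zinc finger factor, averaged 6.34 in flox and 13.9 in KO and was too low for limma.

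Zfp36 was lower in every KO library than in any flox library. Its flox libraries ran from 2959 over a median of 3310 to 4174 normalised counts, and its KO libraries from 2457 over 2675 to 2913. The gap between the groups was narrow, with KO replicate 8 and flox replicate 7 nearest to each other. The mean went from 3372 ± 397 (SD, n = 9) to 2672 ± 186 (SD, n = 7), 1.26-fold lower. Of the 2339 listed genes that averaged 10 or more normalised counts, 7.44% had groups that did not overlap in either direction. The log2 difference was -0.33 ± 0.08 (SE), with an adjusted p of 0.0173 in limma and a two-sided exact permutation p of 0.000350. For Zfp36 the authors' deposited table lists -0.34 (adjusted p = 0.00120). Zfp36 lies at chr7:28376784-28380253 on the minus strand (ENSMUSG00000044786), and 1274 bases of its model overlap the antisense gene Gm44710, whose reads cannot be told apart from its own without a strand setting.

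Few relatives and targets of Zfp36 were listed. Of 22 other immediate early genes 2 were listed (9.09%, against 14.8% of all 16488 genes), Zfp36 and the antiproliferative gene Btg2, both lower. Btg2 was at 1580 ± 396 (SD, n = 9) in flox and 1104 ± 247 (SD, n = 7) in KO, and its adjusted p in limma was 0.0551. Zfp36l1 and Zfp36l2, which encode proteins with the same type of zinc fingers, were not listed. Of 18 messengers known as tristetraprolin targets 2 were listed (11.1%), Zfp36 itself and the growth factor Vegfa. Vegfa was at 2026 ± 278 in flox and 1573 ± 398 in KO. Limma called 1 of the 2 lower, which was Zfp36. A gene that is not listed may have missed the authors' threshold or may not have been tested.

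Dnajb1 was lower in KO. Its flox libraries ran from 749.7 over a median of 875.5 to 1199 normalised counts, and its KO libraries from 593 over 720.5 to 829.1. Of the KO libraries 5 lay below every flox library, and replicates 3 and 8 were above the lowest flox library. The mean went from 927.3 ± 145 (SD, n = 9) to 709.6 ± 79.4 (SD, n = 7), 1.31-fold lower. The log2 difference was -0.38 ± 0.10 (SE), with an adjusted p of 0.0249 in limma and a two-sided exact permutation p of 0.00131. For Dnajb1 the authors' deposited table lists -0.39 (adjusted p = 0.00538). The limma call was lost when flox replicate 10, KO replicate 1 or KO replicate 7 was left out, with adjusted p of 0.0512, 0.0593 and 0.0611. Dnajb1 lies at chr8:83608193-83612653 on the plus strand (ENSMUSG00000005483).

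Of 30 chaperones of the Hsp70 and Hsp40 classes 4 were listed (13.3%, against 14.8% of all 16488 genes), 3 lower and 1 higher. Limma called 1 lower, Dnajb1, and 0 higher (1 higher at an unadjusted p under 0.05). Dnaja1, another cytosolic Hsp40, was at 4426 ± 382 (SD, n = 9) in flox and 3806 ± 422 (SD, n = 7) in KO, with an adjusted p of 0.0792 in limma and a log2 difference of -0.22. That difference was 0.12 under quantile normalisation and -0.70 with the GC trend removed, which limma called (adjusted p = 0.00305). Dnaja4, a low-abundance Hsp40, was at 46.0 ± 8.72 in flox and 29.9 ± 10.3 in KO. Dnajc2, a ribosome-associated Hsp40, was at 205.4 ± 42.1 in flox and 270.8 ± 39.1 in KO, with an adjusted p of 0.0558 in limma. None of the stress-inducible Hsp70 genes Hspa1a and Hspa1b, the constitutive Hspa8 or the exchange factor Hsph1 was listed.

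Hsp90aa1 was higher in KO. Its flox libraries ran from 1240 over a median of 1472 to 2068 normalised counts, and its KO libraries from 1652 over 2112 to 2726. KO replicate 1 was the highest of all libraries, 4 KO libraries lay above every flox library, and flox replicates 2 and 3 stood within the KO range. The mean went from 1541 ± 256 (SD, n = 9) to 2089 ± 334 (SD, n = 7), 1.36-fold higher. The log2 difference was 0.44 ± 0.11 (SE), with an adjusted p of 0.0215 in limma and a two-sided exact permutation p of 0.00219. For Hsp90aa1 the authors' deposited table lists 0.44 (adjusted p = 0.00415). Hsp90aa1 lies at chr12:110690605-110702728 on the minus strand (ENSMUSG00000021270). Of its 3232 windows of 50 bases, 58.5% occurred unchanged in 4 other annotated genes, mainly the processed pseudogenes Gm12346 and Gm5844, so its count is uncertain where reads could be split. That share was 0% for Junb, 2.52% for Zfp36 and 0.441% for Dnajb1.

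**Figure D1:**
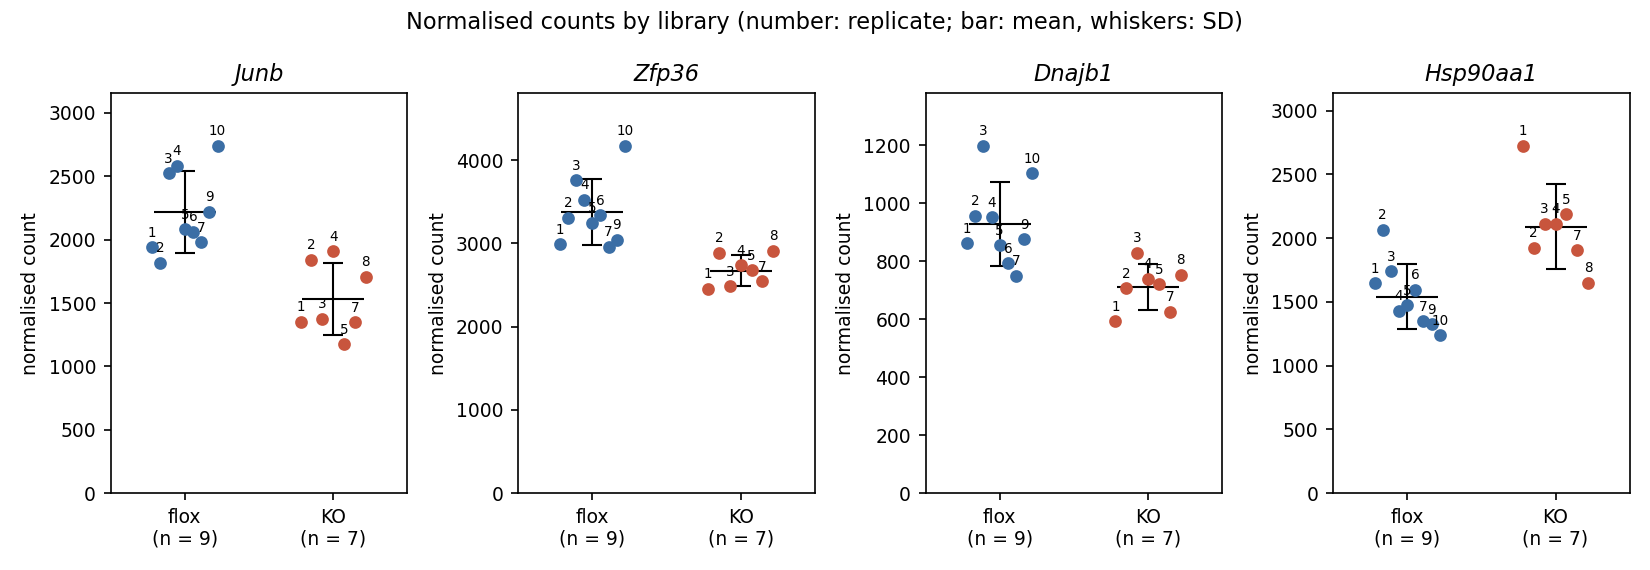
Normalised counts of the 4 genes on the vertical axes, by group on the horizontal axes, with 1 point per library labelled by its replicate number, a bar at the mean and whiskers for the SD (flox, n = 9, and KO, n = 7). The KO points of Zfp36 end at 2913, below the lowest flox point at 2959, while the groups of Junb, Dnajb1 and Hsp90aa1 overlap.

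The listed genes of Hsp90 and its co-chaperones were mostly higher. Of 20 such genes 6 were listed (30%), 5 higher, Hsp90aa1 and Hsp90ab1 among them, and 1 lower. Over all 16488 genes 6.97% were listed as higher and 7.81% as lower. Limma called 3 higher and 1 lower, against 2.72% and 4.97% of all genes. It called 1 higher without flox replicate 3, 4 or 10 or KO replicate 1, 3 or 5 (5 at an unadjusted p under 0.05 each time). Ptges3, which encodes the co-chaperone p23, went up from 726.3 ± 61.3 (SD, n = 9) to 897.5 ± 123 (SD, n = 7). Cacybp, a calcyclin-binding protein, rose from 345.9 ± 47.4 to 451.5 ± 70.6, and the differences of Ptges3 and Cacybp turned negative (-0.13 and -0.10) with the GC trend removed. Hsp90ab1, the constitutive Hsp90 form, was at 5213 ± 722 in flox and 6733 ± 1588 in KO, with an adjusted p of 0.0912 in limma. Ppid, a cyclophilin that binds Hsp90, was at 177.4 ± 35.7 in flox and 244.9 ± 61.7 in KO.

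Of 21 other heat shock genes 4 were listed (19%, against 14.8% of all 16488 genes), 3 higher and 1 lower. Limma called 2 higher and 1 lower. Both counts were 0 when flox replicate 3, 4 or 10 or KO replicate 4 or 5 was left out (3 higher and 1 lower at an unadjusted p under 0.05 each time). Of the 2 higher calls 1 was left without flox replicate 6 or 9 or KO replicate 1 or 7, and 0 without KO replicate 3. The lower call was lost without flox replicate 1, 7 or 9 or KO replicate 1, 7 or 8. Cct6a and Tcp1, subunits of the cytosolic chaperonin, rose from 1175 ± 106 to 1426 ± 157 and from 1086 ± 61.8 to 1277 ± 115 (SD, n = 9 and 7). With the GC trend removed Tcp1 was at -0.25 and Cct6a at 0.09. Limma then called 0 of the 4 listed genes of this list, with 0 higher and 1 lower at an unadjusted p under 0.05. With a GC correction that kept library means it called 0 higher and 1 lower. The polyubiquitin gene Ubb fell 1.26-fold, with a difference of 0.06 under quantile normalisation. Hsf2, a heat shock transcription factor, was at 30.1 ± 7.24 in flox and 45.6 ± 8.74 in KO, with an adjusted p of 0.0640 in limma. Hsf1, the main factor of the heat shock response, was not listed. Over all 5 lists 23 of 117 genes were listed (19.7%, against 14.8% of all 16488 genes), the 4 chosen genes among them, 12 higher and 11 lower. The authors' deposited table puts their median at 0.23 (log2), the value of Tcp1, against -0.23 over all 2438 listed genes. In limma 22 of the 23 were tested, and 5 were called higher and 7 lower. The median log2 difference of the 22 was 0.00, against -0.25 over the 2339 genes tested. It falls in a gap, as none of the 22 lay between Dnaja1 at -0.22 and Tcp1 at 0.23. The limma calls changed when 1 library was left out. They were 1 higher and 4 lower without flox replicate 10, and 1 and 5 without flox replicate 3 or 4. They were 2 and 4 without KO replicate 1, and 2 and 6 without KO replicate 3 or 4. Without KO replicate 5 they were 1 and 6, and without KO replicate 7 3 and 3. In each of these fits at least 9 were higher and 11 lower at an unadjusted p under 0.05. The calls were 0 and 0 when the mean log2 level of the 10 non-epithelial markers entered the model (3 and 8 at an unadjusted p under 0.05). They were also 0 and 0 once the 5 flox libraries rich in pancreas transcripts were dropped (5 and 9 at an unadjusted p under 0.05), and 0 and 1 with the GC trend removed.

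**Figure D2:**
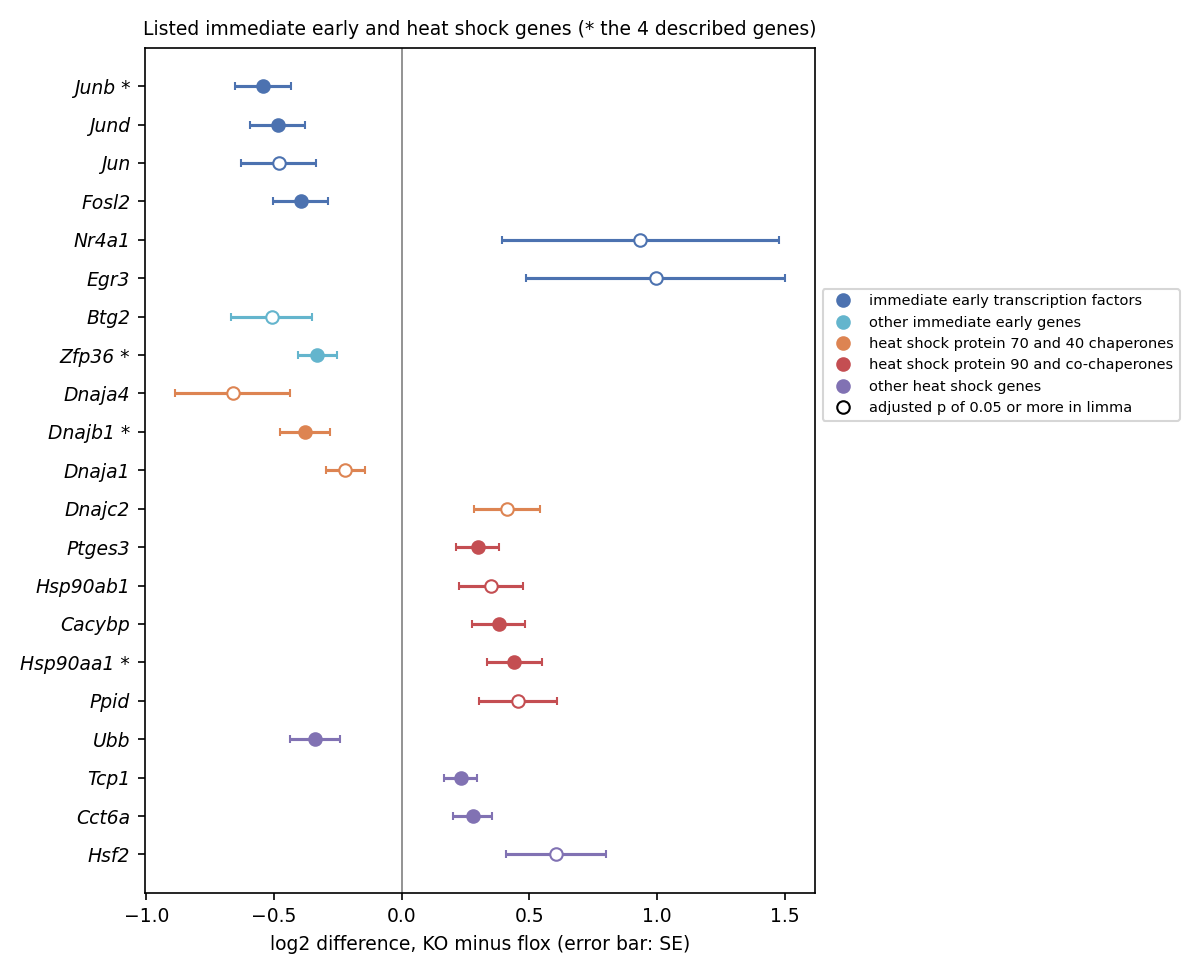
Log2 difference of KO minus flox in limma on the horizontal axis for 21 of the 22 tested genes of the 5 lists, with error bars for the SE, filled where the adjusted p was under 0.05. Junb, Zfp36 and Dnajb1 (starred) lie at -0.54, -0.33 and -0.38, and Hsp90aa1 (starred) at 0.44 with 4 other genes of its list on the same side.

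Per kilobase of the deposited gene length, Zfp36 and Junb were the most abundant of the 4 in flox, at 972 ± 115 and 964 ± 141 normalised counts per kilobase (SD, n = 9), and did not differ beyond their spread. Hsp90aa1 followed at 392 ± 65.0 and Dnajb1 at 289 ± 45.2. In KO the order of means was Zfp36 at 770 ± 53.5, Junb at 665 ± 124, Hsp90aa1 at 531 ± 85.0 and Dnajb1 at 222 ± 24.8 (SD, n = 7). Junb exceeded Hsp90aa1 in 9 of 9 flox libraries and in 5 of 7 KO libraries, and the SDs of these neighbours overlapped in KO. The order rests on gene models that include the long Zfp36 start described above.

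Ratios within a library do not depend on its size factor. The ratio of Hsp90aa1 to Dnajb1 counts was 1.69 ± 0.32 (SD, n = 9) in flox and 3.00 ± 0.76 (SD, n = 7) in KO. Its highest flox value, 2.16, lay below its lowest KO value, 2.19. The choice of a gene that rose and a gene that fell sets the direction of this ratio. How many such pairs of listed genes separate the groups was not counted. The ratio of Hsp90aa1 to Junb was 0.716 ± 0.197 in flox and 1.42 ± 0.41 in KO. Its groups overlapped, with flox up to 1.14 and KO from 0.967. The ratio of Hsp90aa1 to Hsp90ab1 was 0.298 ± 0.045 in flox and 0.318 ± 0.053 in KO, and the groups overlapped. The ratio of Dnajb1 to Zfp36 was 0.275 ± 0.024 in flox and 0.266 ± 0.032 in KO, so these genes stood in a like proportion in both groups. That of Junb to Zfp36 was 0.657 ± 0.056 in flox and 0.571 ± 0.082 in KO.

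**Figure D3:**
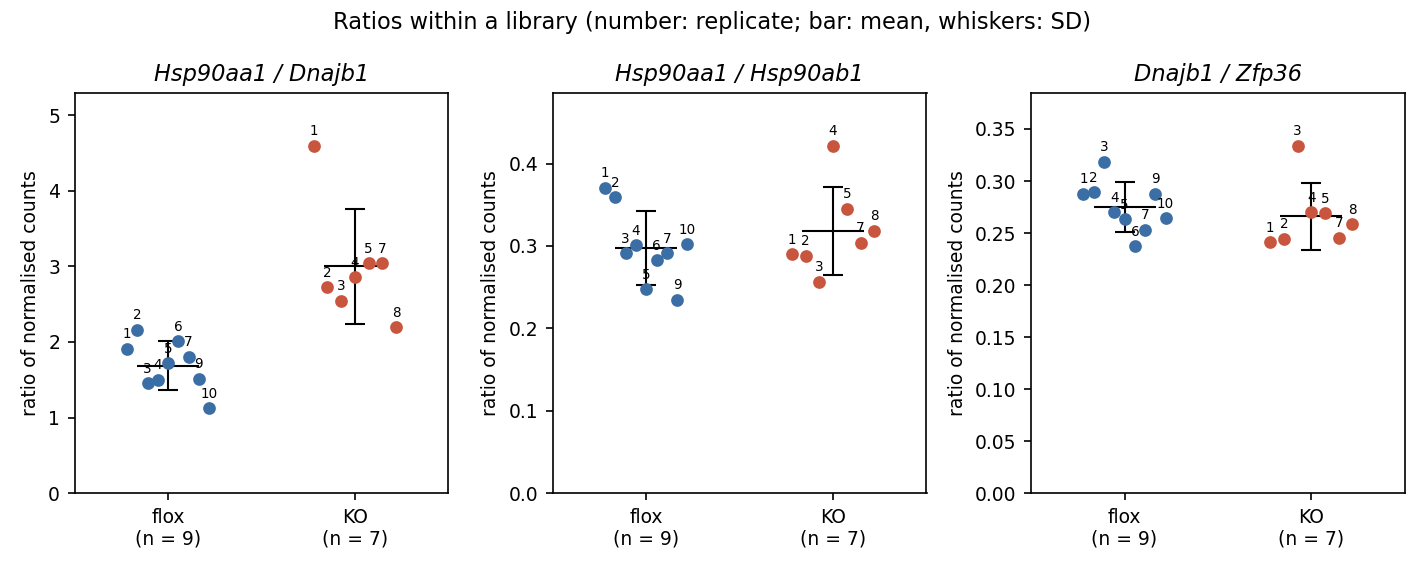
Ratios of normalised counts within each library on the vertical axes, by group, with 1 point per library labelled by replicate, the mean and the SD. Hsp90aa1 over Dnajb1 separates flox (up to 2.16) from KO (from 2.19), while Hsp90aa1 over Hsp90ab1 and Dnajb1 over Zfp36 overlap.

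Among libraries of 1 group no relation between the 4 genes passed adjustment, and the sizes depended on the scaling. In flox Pearson's r of Junb and Zfp36 was 0.80 (exact permutation p = 0.00989, adjusted 0.0593 over 12 relations; n = 9) and Spearman's rho 0.70 (exact p = 0.0433, adjusted 0.260). Without flox replicates 10 and 4, the 2 farthest from the Junb median, r was 0.60. In flox Pearson's r of Zfp36 and Dnajb1 was 0.82 (exact permutation p = 0.00709, adjusted 0.0593; n = 9) and Spearman's rho 0.73 (exact p = 0.0311, adjusted 0.260). Without flox replicates 10 and 3 that r was 0.56. In KO the r of Junb and Zfp36 was 0.69 (exact permutation p = 0.0990, adjusted 0.238; n = 7) and rho 0.54 (exact p = 0.236, adjusted 0.471), and r was 0.57 without KO replicates 4 and 2. In KO the r of Zfp36 and Hsp90aa1 was -0.71 (exact permutation p = 0.0657, adjusted 0.197; n = 7) and rho -0.61 (exact p = 0.167, adjusted 0.465), and r was -0.19 without KO replicates 1 and 8. With quantile normalisation the r of Junb and Zfp36 was 0.20 in flox and 0.25 in KO, that of Zfp36 and Dnajb1 in flox was 0.39, and that of Zfp36 and Hsp90aa1 in KO was 0.28. As deposited, the adjusted p of the other 8 Pearson relations ran from 0.184 to 0.767.

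The genes most like each of the 4 were ranked by Pearson's r of log2 values over the 16 libraries after subtraction of the group mean. This is a description, and the libraries share their scaling. For Junb they were Gpd1, a glycerol-3-phosphate dehydrogenase (r = 0.86), the tyrosine kinase Src (0.85) and the lysosomal sulfatase Arsa (0.85). For Zfp36 they were Tnip1, an inhibitor of NF-kappaB signalling (r = 0.87), Dedd2 (0.80) and Fam214b (0.79). For Dnajb1 they were the tetraspanin Cd151 (r = 0.86), the claudin Cldn7 (0.84) and the goblet cell lectin Zg16 (0.84). For Hsp90aa1 they were Gimap9, a GTPase of lymphocytes (r = 0.77), the cohesin regulator Pds5b (0.73) and Trim44 (0.73).

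The 4 genes are set below beside other properties of the libraries and transcripts. The non-epithelial score, the mean log2(normalised count + 1) of the 10 listed markers, was 4.23 to 5.43 in flox and 4.89 to 6.78 in KO. KO replicate 1 had the highest score and also the highest Hsp90aa1 and the lowest Zfp36 and Dnajb1. KO replicates 2 and 3, at 4.89 and 5.09, lay within the flox range of the score. In these 2 libraries Junb was 1842 and 1375, Zfp36 2889 and 2482, Dnajb1 706.4 and 829.1, and Hsp90aa1 1925 and 2112, all on the KO side of the flox medians. Flox replicate 2, with the highest flox score (5.43), had the highest flox Hsp90aa1 (2068) and the lowest flox Junb (1819). That Hsp90aa1 was above, and that Junb below, the level in KO replicate 2. Its Zfp36 (3310) and Dnajb1 (957.5) were above those of KO replicate 2. With the score as a covariate the log2 differences were -0.35, -0.27, -0.22 and 0.21 for Junb, Zfp36, Dnajb1 and Hsp90aa1, and 0 of 4 passed limma (2 had an unadjusted p under 0.05), while 7 of the 2339 genes passed in place of 1269. Without the 5 flox libraries with pancreas transcripts they were -0.46, -0.32, -0.44 and 0.27, and again 0 of 4 passed limma, with 3 at an unadjusted p under 0.05 and 11 genes passing in all. Of these 5 libraries, flox replicate 10 held the most pancreas transcripts (135780). It also had the highest Junb (2742) and Zfp36 (4174) and the lowest Hsp90aa1 (1240) of all libraries. Dnajb1 was highest in flox replicate 3 (1199), which is not among the 5. The part of non-epithelial and pancreas transcripts in the 4 differences was not tested beyond these values.

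**Figure D4:**
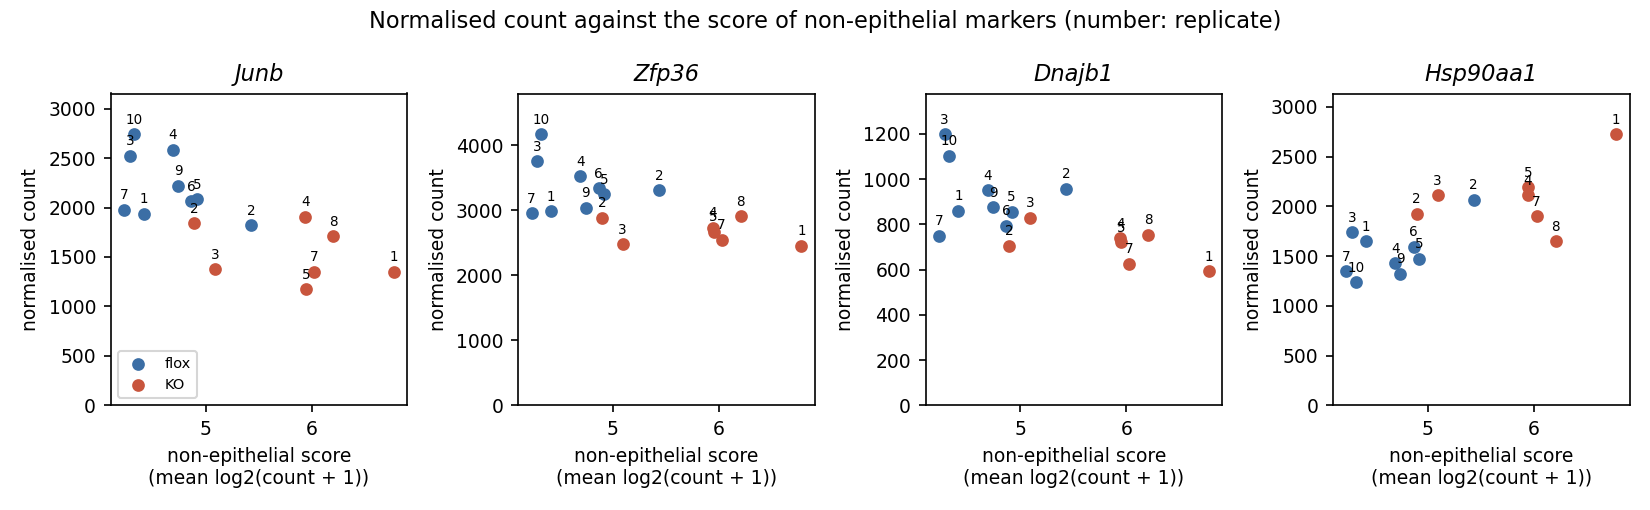
Normalised count of each of the 4 genes on the vertical axes against the non-epithelial score of the library on the horizontal axes, with 1 point per library labelled by replicate. KO replicate 1, at a score of 6.78, has the highest Hsp90aa1 (2726) and the lowest Dnajb1 (593), and KO replicates 2 and 3 lie among the flox scores.

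Direction went with base composition across the table. In the 585 tested genes of lowest GC content (up to 45.1%) the median log2 difference was 0.52, and in the 585 of highest (from 55.7%) it was -0.37. The longest transcript of Hsp90aa1 has 43.7% GC, that of Dnajb1 52.7%, that of Zfp36 54.1% and that of Junb 62.6%. Each of the 4 thus went in the direction of most tested genes of like GC content. With a smooth GC trend removed in each library the log2 differences were -0.11 for Junb, -0.04 for Zfp36, -0.16 for Dnajb1 and 0.03 for Hsp90aa1. The trend was fitted on listed genes alone, which the authors had selected for a difference. Its removal can therefore take out part of a difference between the groups, here and wherever this setting is given. None of the 4 then passed limma, and 0 had an unadjusted p under 0.05. Direction also went with abundance: of 768 listed genes that averaged 1000 or more normalised counts, as for Junb, Zfp36 and Hsp90aa1, 56 were higher, Hsp90aa1 among them. Of 679 with a mean from 200 to 1000, as for Dnajb1, 448 were lower.

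Scaling moved the sizes but turned no sign of the 4. TMM scaling on the listed genes shifted the median log2 difference of the tested genes by 0.13. The log2 differences were then -0.42 for Junb and 0.57 for Hsp90aa1, both past the threshold in limma, and -0.20 for Zfp36 and -0.25 for Dnajb1, which were not (adjusted p = 0.0641 and 0.0923). Of the 22 tested genes of the 5 lists, limma then called 9 higher and 2 lower in place of 5 and 7. With quantile normalisation over the listed genes, which gives all libraries 1 distribution, the values were -0.21, -0.02 and -0.14 for Junb, Zfp36 and Dnajb1 and 0.76 for Hsp90aa1, which alone passed. On recovered reads edgeR and DESeq2 called all 4.

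**Figure D5:**
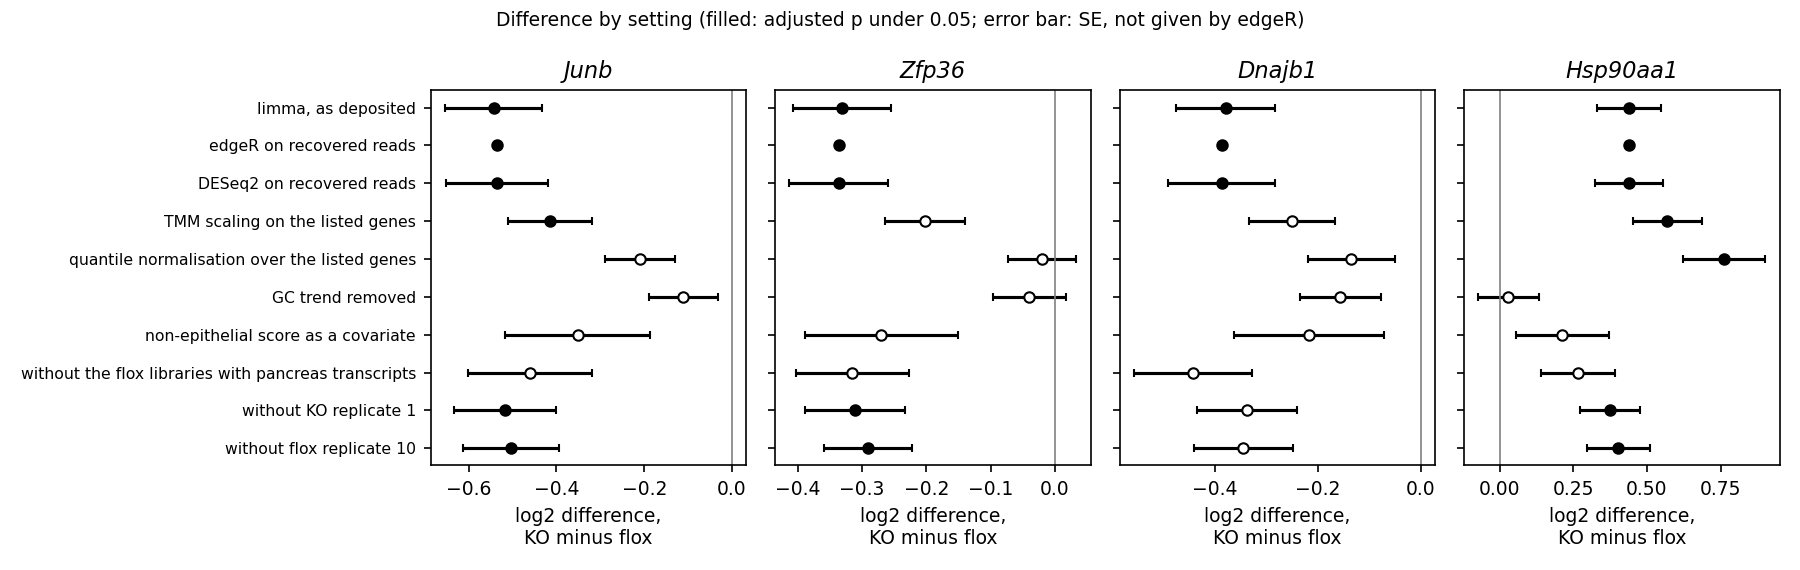
Log2 difference of KO minus flox on the horizontal axes for each of the 4 genes under 10 settings, filled where the adjusted p was under 0.05, with error bars for the SE where the tool gives one. Points stay on 1 side of 0 in each panel, and with the GC trend removed they lie at -0.11, -0.04, -0.16 and 0.03.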

How the data were processed

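Polyadenylated RNA of frozen duodenal material, epithelium per the labels and intestinal tissue per the design text, was sequenced in 16 libraries. The submitters' processing notes name GRCm38/mm10, DESeq2 1.20.0, HISAT2 2.0.5 and featureCounts 1.5.0-p3, without their settings. The deposited values are a signal: read counts divided by 1 size factor per library (0.878 to 1.38), with 100% of values whole reads within 0.0001 reads. The deposited log2 fold changes, p-values and adjusted p-values are the authors' own. The table holds 2438 genes with an adjusted p of at most 0.0497, so library totals are unknown, and the authors' p-values imply adjustment over 16488 genes.

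Groups were taken from the labels. The main test was limma 3.58.1 (trend, robust) on log2(normalised count + 1) for the 2339 genes with a mean of at least 10. P-values were adjusted by Benjamini-Hochberg over 16488 genes, with each gene outside the table at a p of 1. Fold changes on this scale understate those of low genes. A two-sided exact permutation test over all splits into 9 and 7 was run per gene, with 8.74e-05 as its smallest possible p. Alternatives were other pseudocounts and filters, TMM and quantile scaling, edgeR 4.0.16 and DESeq2 1.42.0 on recovered reads (called 1303 and 2112 genes), a marker score as covariate, libraries left out, a replicate block and removal of a GC trend, with GC content of the longest GENCODE M21 transcript for 2437 of 2438 genes. Code was tested on simulated data. No 2 libraries were alike within sampling noise (smallest chi-square per degree of freedom 16.1).

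Named genes were the 4 genes, each listed gene of the 5 lists except 1 that is not reported here, the 3 listed genes most like each of the 4, and Ephb4. Vegfa came from the list of tristetraprolin targets, and Rbp2 and Lum from marker lists; these 3 and unlisted genes were chosen after their values were seen. Members and lists were chosen with earlier results of these data known.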

Additional observations from a re-analysis of the deposited data

Results flagged for a closer look

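Ephb4 in KO replicate 1 stood apart from the other KO libraries. It was at 84.7 normalised counts there, from 117 recovered reads, while the other 6 KO libraries lay between 23.3 and 37.3. On the log2(normalised count + 1) scale, the gap to the nearest library was 0.64 of the range of the group, above the critical value for 7 libraries. Of 48 groups examined, 24 genes in 2 groups each, this was the only one so marked, and chance marks about 1 in 20. KO replicate 1 was also the library with the highest Hsp90aa1 and the highest non-epithelial score. Without it the log2 difference of Hsp90aa1 was 0.37 and passed limma, and that of Dnajb1 was -0.34 and did not (adjusted p = 0.0593).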

How the results depend on the processing

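None of the 4 genes changed sign under any of the 32 alternatives, although Hsp90aa1 was at 0.00 after GC correction that kept library means. Pseudocounts of 5 and 0.5, both filters, edgeR and DESeq2 kept all 4 calls. Limma called 1269 genes. The count was 355 with quantile normalisation, 2112 with DESeq2, 350 with edgeR without KO replicates 1 and 3 (whose recovered reads are less certain; added after seeing the data; DESeq2 on the same libraries called 1157, with all 4 genes among them), 7 with the marker score as covariate, 11 without the flox libraries with pancreas transcripts, 250 with the GC trend removed and 260 with library means kept (also added after seeing the data). Of the 4 genes it called 2 with TMM, 1 with quantile normalisation and 0 with each of the other 5 settings, of which edgeR without KO replicates 1 and 3 had all 4 at an unadjusted p under 0.05. For Junb the values were -0.21 with quantile normalisation, -0.47 with edgeR without KO replicates 1 and 3, -0.35 with the covariate, -0.46 without the pancreas libraries, and -0.11 and -0.14 with the GC trend removed in each way. In the same order, Zfp36 was at -0.02, -0.29, -0.27, -0.32, -0.04 and -0.07 (TMM, -0.20), Dnajb1 at -0.14, -0.39, -0.22, -0.44, -0.16 and -0.18 (TMM, -0.25), and Hsp90aa1, from edgeR on, at 0.35, 0.21, 0.27, 0.03 and 0.00. The cause was not tested, except that leaving out 5 of 9 flox libraries leaves fewer samples.

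Leaving out 1 library at a time gave 518 (without KO replicate 7) to 1458 genes and 3 to 4 of the 4 genes. The count fell by over 1.5 times also without flox replicate 3 (615), 4 (838) or 10 (646) and KO replicate 1 (645) or 5 (622). The values ran from -0.60 to -0.48 for Junb, -0.35 to -0.29 for Zfp36, -0.42 to -0.33 for Dnajb1 and 0.37 to 0.50 for Hsp90aa1. The labels give no pairing of samples by replicate number. Deviations of same-numbered libraries over the tested genes correlated at -0.43 to 0.37, and only number 7 correlated best with its own. Such correlations cannot exclude a pairing, as other differences between libraries enter them too. With a replicate block on the 12 libraries with shared numbers 9 genes and 0 of the 4 passed limma (1797 genes and all 4 at an unadjusted p under 0.05), at -0.53, -0.32, -0.40 and 0.42 for Junb, Zfp36, Dnajb1 and Hsp90aa1. Without the block the same libraries, a fit added after seeing the data, gave 355 genes, 1 of the 4 genes (Junb) and equal differences. Signs turned for Egr3 (-0.85) and Nr4a1 (-1.26) with the covariate, and for Dnaja1 (0.12), Hsf2 (-0.14) and Ubb (0.06) with quantile normalisation. With the GC trend removed, and with means kept, they turned for Jund (0.06, 0.03), Dnajc2 (-0.05, -0.08), Ptges3 (-0.13, -0.16), Ppid (-0.01, -0.04), Cacybp (-0.10, -0.13) and Tcp1 (-0.25, -0.27). The 12 correlations stayed short of the threshold under all 5 alternatives tried for them, also chosen after seeing the data, but their sizes and some signs did not hold. In KO, Zfp36 and Dnajb1 went from 0.32 to -0.77 and Zfp36 and Hsp90aa1 from -0.71 to 0.28 with quantile normalisation. Depth limits Egr2, Egr3 and Nr4a1, the least abundant listed genes of the 5 lists.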

Other observations

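Egr3 and Nr4a1, immediate early transcription factors listed as higher in KO, split the KO libraries. Nr4a1 was at 48.5, 31.8, 35.2, 30.1 and 29.3 normalised counts in KO replicates 1, 4, 5, 7 and 8, above all 9 flox libraries, which ran from 4.05 to 16.2. In KO replicates 2 and 3 it was at 1.87 and 4.03, below every flox library, though 4.03 is close to the lowest flox value, 4.05. Egr3 was at 39.8, 27.4, 33.3, 24.8 and 41.9 in the former 5 KO libraries and at 10.3 and 2.01 in KO replicates 2 and 3, against 4.78 to 27.0 in flox. KO replicates 2 and 3 were the KO libraries with the lowest non-epithelial scores. Limma called neither gene with all libraries (adjusted p = 0.715 for Nr4a1 and 0.457 for Egr3). Without KO replicate 3 it called Egr3 (log2 difference 1.45, adjusted p = 0.0334) and not Nr4a1 (adjusted p = 0.194). DESeq2 on recovered reads of all libraries called Nr4a1 (adjusted p = 0.0458) and not Egr3 (adjusted p = 0.0737). The part of non-epithelial transcripts in the levels of both genes was not tested. Junb, Zfp36, Dnajb1 and Hsp90aa1 did not split the KO libraries in this way, and all 7 KO libraries lay on 1 side of the flox median for each of them. That does not set the 4 apart, as it also held for other listed genes, Jun, Jund, Egr2, Hsf2 and Cct6a among them. The share over all listed genes was not counted, and all of these had been selected for a difference in these libraries.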
